A study of Mus musculus with 20 samples.

Results

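Fc receptors bind the constant part of antibodies and tie antibody to the cells that take up and destroy what it coats. The 6 genes described here are the 3 activating IgG receptors of the mouse (Fcgr1, Fcgr3 and Fcgr4), the inhibitory IgG receptor (Fcgr2b), the signalling chain shared by the activating receptors (Fcer1g) and the neonatal Fc receptor (Fcgrt). They were chosen by name. All 6 were present among the 15855 genes of the table of cultured cells and the 15333 genes of the table of tumor cells.

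Activating receptors associate with the Fcer1g chain, whose ITAM motif is phosphorylated by Src-family kinases and recruits Syk, and this leads to phagocytosis and cytokine release. Fcgr2b carries an inhibitory ITIM motif that recruits the phosphatase SHIP1, so the balance between the 2 kinds of receptor sets the threshold at which a macrophage responds to immune complexes. It is the IgG receptor of B cells, while macrophages carry both kinds. Fcgrt, a relative of MHC class I that pairs with B2m, works in endosomes, where it rescues IgG from degradation.

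Macrophages were generated from BM B cells (B-MF) or from monocytes (Mo-MF) in medium conditioned by 4T1.2 mammary cancer cells (CM), with 2 scRNA-seq libraries of each. TAM were FACS-purified from 4 mice with 4T1.2 tumors and gave 4 libraries, numbered 2 to 5 in the table. ATAC-seq of B-cell precursors (BMBP) of naïve mice, which the labels name macrophages, had 4 groups of 3 libraries, namely CSF1R+ or CSF1R- cells of BM or of spleen. B cells were sorted from BM by FACS and kept in CM for a week. Mice were young females, C57BL/CJ or BALB/CJ as the culture methods spell them, and which of these gave the scRNA-seq cultures is not given in the sources used here. Both cultures and the tumors shared exposure to 4T1.2 products, and the study's scRNA-seq had no untreated macrophages in the samples used here.

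The cultured libraries held 4846 to 5389 cells with medians of 18350 to 19469 corrected counts per cell, and the TAM libraries held 2318 to 3180 cells with medians of 7651 to 8266. The 2 tables were normalised separately, so levels in cultured cells and in TAM stand side by side without a test. No pair of libraries shared more than 0.302% of the cell barcodes of the smaller library. Neutrophil-like cells made up 10.4% and 9.46% of the Mo-MF libraries, while the B-MF libraries held 3 and 0 such cells. All 7 neutrophil markers were detected in both Mo-MF libraries, with summed levels of 153 and 124 corrected counts per cell. The sums were 4.83 and 4.56 in B-MF, with 2 and 1 of the markers at 0. Markers of B cells summed to 0.465 and 0.444 in B-MF, against 0.158 and 0.135 in Mo-MF, where 2 and 3 of the 6 were at 0. The 6 monocyte markers summed to 0.627 and 0.625 in B-MF, with 1 at 0, against 5.76 and 5.79 in Mo-MF. The 8 macrophage markers summed to 293 and 282 against 600.0 and 590.4, and the 3 osteoclast markers in the table to 0.612 and 0.554 against 2.63 and 2.45. Such a sum follows its most abundant genes and does not show that the single markers go the same way. Of the macrophage markers, C1qa, C1qb and C1qc were among the leading genes of a cluster mostly of B-MF (cluster 0). Apoe was among those of a cluster mostly of Mo-MF (cluster 2). The 4 T/NK markers in the table summed to 2.22 and 2.39 in B-MF, against 5.42 and 5.63 in Mo-MF. Mast/basophil markers summed to 0.00115 and 0.000751 against 0.326 and 0.118. Fibroblast markers went the other way, at 0.157 and 0.139 against 0 and 0.0210. The part of the monocyte, macrophage, osteoclast, T/NK, mast/basophil and fibroblast markers in the receptor levels was not tested. The median mitochondrial share was 6.88% and 7.07% in B-MF beside 4.54% and 4.68% in Mo-MF. Without the clusters of highest and lowest mitochondrial share, a choice made after seeing the data, the log2 differences of B-MF minus Mo-MF described below were 1.31 for Fcgrt, 0.53 for Fcgr3, 0.28 for Fcer1g and 0.27 for Fcgr4, and the same 4 genes passed the test. In the TAM libraries, neutrophil-like cells made up 37.3% to 63.3% of cells and monocyte/macrophage-like cells 27.6% to 46.4%, so these libraries go against their label in part, and values are given by cell class as well as over all cells.

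The promoters of the 6 genes are shown because the ATAC-seq data bear on them. Each line gives the 150 bases before the gene start in the RefSeq promoter table of GRCm38.p6, read in the direction of transcription. For Fcgr3, other RefSeq transcripts start further upstream, up to position 171065915. Capitals mark TTCCTC, the reverse complement of GAGGAA, which is the core of the site bound by the myeloid factor PU.1. Both strands were searched for GAGGAA. Fcgr1 lies on the minus strand (chr3:96293970-96294119), as do Fcgr3 (chr1:171059404-171059553), Fcgr2b (chr1:170976072-170976221), Fcer1g (chr1:171234350-171234499) and Fcgrt (chr7:45103823-45103972), and Fcgr4 lies on the plus strand (chr1:171018776-171018925).
Fcgr1: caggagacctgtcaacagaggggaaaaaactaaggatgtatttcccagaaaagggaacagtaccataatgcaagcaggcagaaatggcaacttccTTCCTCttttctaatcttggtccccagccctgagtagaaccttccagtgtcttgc
Fcgr3: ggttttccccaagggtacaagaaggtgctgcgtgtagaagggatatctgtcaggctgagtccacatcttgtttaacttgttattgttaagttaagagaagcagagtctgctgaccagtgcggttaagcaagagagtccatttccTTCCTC
Fcgr4: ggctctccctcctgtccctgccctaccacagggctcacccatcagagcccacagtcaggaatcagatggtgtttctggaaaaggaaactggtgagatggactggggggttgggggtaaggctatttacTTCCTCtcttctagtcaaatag
Fcgr2b: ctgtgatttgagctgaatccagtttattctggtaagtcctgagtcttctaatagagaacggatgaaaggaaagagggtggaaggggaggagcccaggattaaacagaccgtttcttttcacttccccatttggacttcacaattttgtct
Fcer1g: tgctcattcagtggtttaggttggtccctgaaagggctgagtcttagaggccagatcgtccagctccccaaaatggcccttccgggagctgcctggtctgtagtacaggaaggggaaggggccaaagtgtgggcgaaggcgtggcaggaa
Fcgrt: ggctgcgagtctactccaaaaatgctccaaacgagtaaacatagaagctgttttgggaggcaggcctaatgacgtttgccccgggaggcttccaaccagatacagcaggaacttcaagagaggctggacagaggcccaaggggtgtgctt

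Each of the 3 activating receptors held the core a single time, in the same orientation, starting 55 bases before the gene start in Fcgr1, 22 in Fcgr4 and 6 in Fcgr3. No match lay in the windows of Fcgr2b, Fcer1g and Fcgrt. Of 27025 promoters in the RefSeq table, 14.4% held the core in a window of this length. A match is a description of the letters and does not show binding. Fcgr2b, Fcgr3 and Fcgr4 lie together with Fcer1g on chromosome 1. Fcgr2b and Fcgr3 have nearly identical extracellular parts, and counts of reads that match both are uncertain.

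The comparison of B-MF with Mo-MF asks whether macrophages of B-cell and of monocyte origin carry the same Fc receptors. Fcgrt, Fcgr3, Fcgr4 and Fcer1g were higher in B-MF, by 2.50-fold for Fcgrt and by 1.19-fold to 1.42-fold for the others. Fcgr1 and the inhibitory Fcgr2b did not pass the test. No member was lower in B-MF over all cells of a library. Levels are mean corrected counts per cell of a library, from 3′ tags that need no correction for gene length. Differences are on the log2 scale of that mean plus 0.1, and p-values are from limma with Benjamini-Hochberg adjustment over 8633 genes. The labels do not say whether the 2 libraries of a cell type came from separate cultures, so these p-values measure the spread between the libraries alone. In limma that spread is pooled in part over all genes tested, with 5.92 prior beside 2 residual degrees of freedom.

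Fcgr1 encodes the high-affinity receptor CD64, which binds monomeric IgG. Its level was 4.80 and 4.70 in B-MF, against 4.49 in each of the Mo-MF libraries. The groups did not overlap, but the log2 difference of 0.08 (SE 0.0494, 95% confidence interval -0.03 to 0.20) gave an adjusted p of 0.232 in limma.

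Fcgr3, the low-affinity receptor CD16 of the mouse, was the most abundant of the IgG receptors. It reached 22.1 and 21.8 in B-MF, against 15.6 and 15.4 in Mo-MF. Both B-MF libraries were above both Mo-MF libraries, with a log2 difference of 0.50 (SE 0.0493, limma adjusted p = 0.000117). Fcgr4, a receptor for IgG2a and IgG2b immune complexes, was at 4.81 and 4.76 in B-MF, against 4.01 and 3.97 in Mo-MF. This difference of 0.26 on the log2 scale (SE 0.0491) had a limma adjusted p of 0.0041.

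Fcgr2b was at 9.63 and 9.47 in B-MF, against 9.26 and 8.84 in Mo-MF. The libraries of the cell types did not overlap here either, and the log2 difference was 0.08 (SE 0.0520, 95% confidence interval -0.04 to 0.20, limma adjusted p = 0.28). Differences of Fcgr1 and Fcgr2b above 0.20 on the log2 scale therefore lay outside the intervals. Both genes passed the threshold when limma's variance was allowed to follow the mean level (adjusted p = 0.000994 and 0.000671) and when deposited log values were averaged (adjusted p = 0.000196 and 5.06e-07), so their calls depended on the setting. The other 4 members passed in both of these settings. Among the cells of clusters named monocyte/macrophage-like, Fcgr2b went the other way without overlap. It was at 10.2 and 9.86 in B-MF there, against 10.8 and 10.3 in Mo-MF. That class leaves out the unnamed clusters, among them a large one of Mo-MF (cluster 3).

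Fcer1g had the highest level of the 6 genes in every library. It was at 50.5 and 50.4 in B-MF, against 42.3 and 42.4 in Mo-MF. The log2 difference was 0.25 (SE 0.0489, limma adjusted p = 0.00431). Per summed count of the 3 activating receptors, there were 1.59 and 1.61 counts of Fcer1g in B-MF, against 1.76 and 1.78 in Mo-MF. Relative to the receptors it serves, the chain was thus lower in both B-MF libraries.

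Fcgrt showed the largest difference among the members. Its level was 7.16 and 6.71 in B-MF against 2.78 and 2.78 in Mo-MF, and the log2 difference was 1.29 (SE 0.0542, limma adjusted p = 8.32e-07). Its light chain partner B2m went the other way, at 37.5 and 37.9 in B-MF, against 44.8 and 42.9 in Mo-MF (log2 difference -0.22, limma adjusted p = 0.0114). This call was lost without either Mo-MF library (limma adjusted p = 0.196 and 0.0591).

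In all, 4 of 6 members were called higher and 0 lower, beside 22.6% and 16.9% of all genes tested, or 39.5% in either direction. All 6 members had libraries that did not overlap, which held for 69.6% of all genes, so the lack of overlap sets no member apart. Leaving out the first Mo-MF library ended the call of Fcer1g (limma adjusted p = 0.0579), and leaving out the second ended that of Fcgr4 (limma adjusted p = 0.0552). Fcgr1 was called without the second B-MF library (limma adjusted p = 0.0461). Without the neutrophil-like cells and a mixed cluster of B-cell, fibroblast and basophil markers, the log2 differences were 1.26 for Fcgrt, 0.49 for Fcgr3, 0.26 for Fcer1g, 0.23 for Fcgr4, 0.04 for Fcgr1 and 0.03 for Fcgr2b, and the same 4 genes were called.

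**Figure D1:**
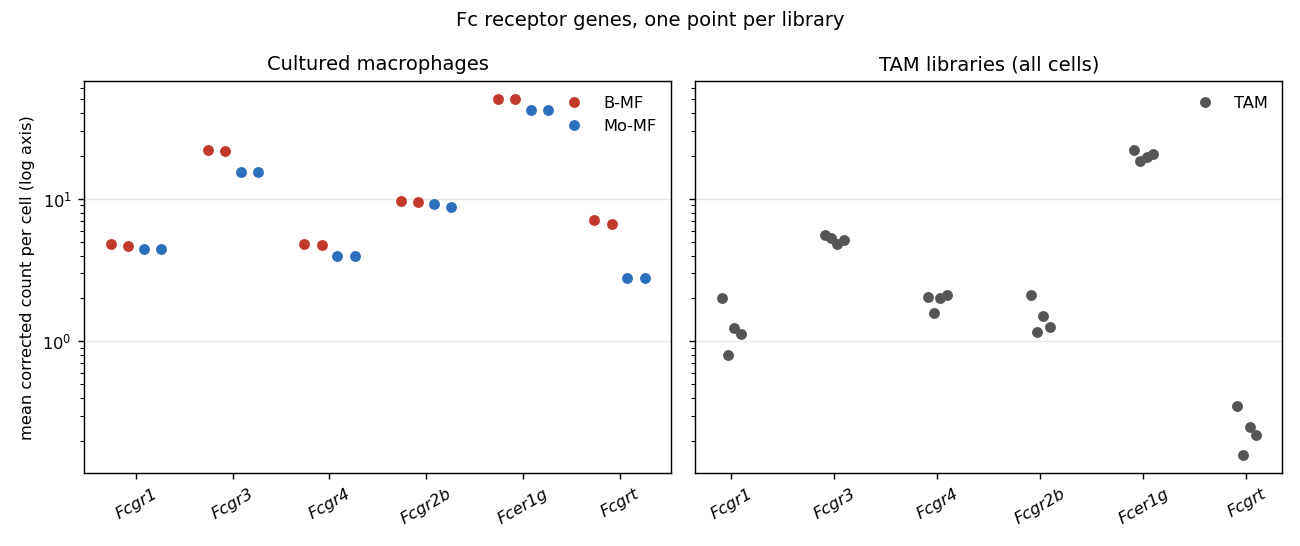
Mean corrected count per cell of each Fc receptor gene on a log axis, with 1 point per library for B-MF and Mo-MF (left) and for TAM (right). Fcgrt shows the widest gap between B-MF and Mo-MF, and the TAM libraries spread most in Fcgr1, Fcgr2b and Fcgrt.

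The activating to inhibitory ratio, the summed level of Fcgr1, Fcgr3 and Fcgr4 over that of Fcgr2b, was 3.29 and 3.30 in B-MF, against 2.60 and 2.69 in Mo-MF. Both B-MF libraries lay above both Mo-MF libraries, and the mean log2 ratio differed by 0.32. The exact two-sided permutation test gave p = 0.333, the smallest value that 2 against 2 libraries allow. Taken alone over Fcgr2b, Fcgr3 gave a log2 difference of 0.43, Fcgr4 of 0.18 and Fcgr1 of 0.01, so the larger ratio in B-MF came with Fcgr3. Cells with more Fcgr2b than summed activating counts made up 3.57% and 3.23% of B-MF, against 5.12% and 4.97% of Mo-MF. In the monocyte/macrophage-like class alone the ratio was 3.29 and 3.32 in B-MF, against 2.25 and 2.34 in Mo-MF. That class held 86.5% and 89.1% of B-MF cells but 49.8% and 53.0% of Mo-MF cells. It leaves out the unnamed Mo-MF cluster 3, where the ratio was 3.03 and 3.33, so the wider gap depends on which clusters were named.

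Within each cell type the ratio ranged widely among clusters. Clusters were built without the members and their pathway genes. Most B-MF fell into a cluster led by Pf4 and C1q genes (cluster 0, 2364 and 2483 cells) and a cluster led by Fabp3 and Lpl (cluster 1, 2140 and 2238 cells). In cluster 0, Fcgr2b was at 13.4 and 12.8 and the ratio at 2.81 and 2.86. In cluster 1, Fcgr2b was at 6.73 and 6.60 and the ratio at 4.34 and 4.31. Every member but Fcer1g was higher in cluster 0 in both B-MF libraries, and Fcgrt was at 10.4 and 9.36 there against 4.83 and 4.55.

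Mo-MF showed a wider range. A cluster led by Mgll and Apoe (cluster 2, 1471 and 1757 cells) had Fcgr2b at 15.4 and 14.6 and a ratio of 1.80 and 1.89. An unnamed cluster led by Bex1 and Arg1 (cluster 3, 1387 and 1483 cells) had Fcgr2b at 8.85 and 7.78 and a ratio of 3.03 and 3.33. A cluster led by Ly6a and Ccl7 (cluster 4, 858 and 1013 cells) had Fcgr2b at 3.15 and 3.16 and a ratio of 5.80 and 5.72. Fcer1g ran the opposite way over these clusters, from 32.2 and 32.9 in cluster 2 through 39.4 and 38.7 in cluster 3 to 64.4 and 64.2 in cluster 4. In cluster 2, 12.2% and 11.3% of Mo-MF cells held more Fcgr2b than activating counts, against 1.28% and 0.987% in cluster 4. These are descriptions of clusters found in the same cells, with no test.

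In 6 clusters every library held at least 10 cells, and the members did not go the same way in all of them. In the cluster led by cell cycle genes (cluster 5, at least 181 cells per library), Fcgrt was at 2.79 and 2.63 in B-MF, against 1.42 and 1.35 in Mo-MF. Fcgr3 was at 13.5 and 12.4 against 8.86 and 7.94 in the same cluster. Fcgr2b there did not separate the groups, at 3.96 and 4.01 against 3.96 and 3.81. In the cluster with the highest mitochondrial share (cluster 6, at least 83 cells per library), Fcgrt was at 4.29 and 5.51 in B-MF, against 2.58 and 2.57 in Mo-MF, while Fcgr3 overlapped. Fcgr2b was higher in B-MF there with no overlap, at 8.35 and 9.72 against 6.85 and 8.28 (log2 difference 0.26). Every cell of cluster 6 held a corrected count of each of the 6 members, down to Fcgr4 at a mean of 2.45 in both Mo-MF libraries, so shares of cultured cells with a count are not compared.

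The other 4 clusters had as few as 12 to 16 cells in their smallest library. In all 4 of these, unlike in cluster 6, Fcgr2b was lower in B-MF with no overlap. Its log2 difference was -0.39 in cluster 0, -0.49 in cluster 2, -0.36 in cluster 8 and -1.61 in cluster 11. Cluster 8 is an unnamed cluster led by Fth1 and Fabp5. Fcgr3 was higher in B-MF in clusters 0 (0.57) and 8 (0.29) and lower in cluster 2 (-0.21). Fcgrt was higher in clusters 0 (0.44) and 2 (0.52) and overlapped in cluster 8. Fcgr4, called over all cells, overlapped in clusters 0, 2, 5 and 8, and was higher in B-MF without overlap in cluster 6 alone among the 6 clusters. Fcer1g overlapped in clusters 0 and 6 and was higher without overlap in clusters 2, 5 and 8. In cluster 11, with its mixed markers of B cells, fibroblasts and basophils, all members but Fcgrt were lower in B-MF. Fcer1g was at 5.17 and 5.6 against 39.1 and 39.8 there, and Fcgr3 at 2.39 and 3.33 against 10.1 and 11.8. Over whole libraries, fibroblast markers summed to 0.157 and 0.139 in B-MF, against 0 and 0.0210 in Mo-MF. Mast/basophil markers summed to 0.00115 and 0.000751 against 0.326 and 0.118. Whether cluster 11 held the same cell types in both was not tested. Its differences, that of Fcgr2b included, are therefore not read as B-MF against Mo-MF macrophages.

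**Figure D2:**
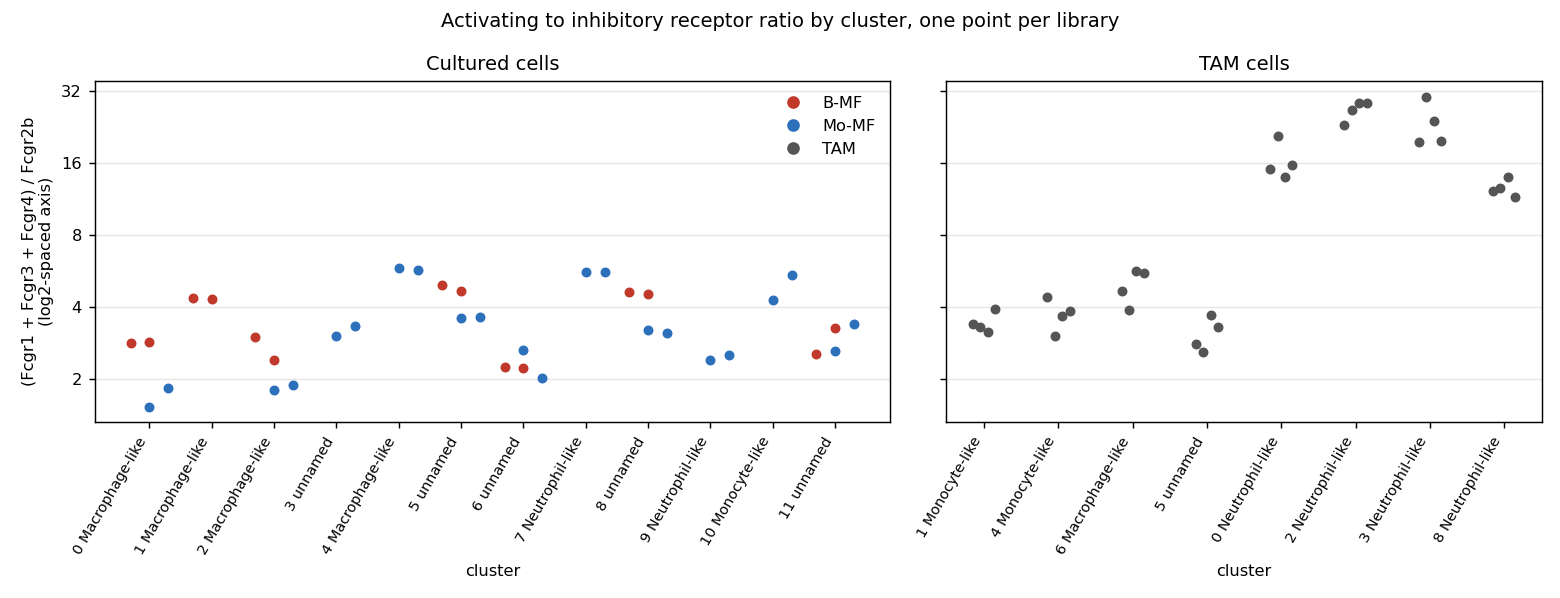
Ratio of summed Fcgr1, Fcgr3 and Fcgr4 to Fcgr2b by cluster on a log2-spaced axis, with 1 point per library holding at least 10 cells of the cluster, for cultured cells (left, B-MF and Mo-MF) and for the monocyte, macrophage and neutrophil-like clusters and cluster 5 of TAM (right). Mo-MF points run from 1.53 in cluster 0, where a library had 18 cells, to 5.80 in cluster 4, and the TAM neutrophil-like clusters lie above all monocyte-like and macrophage-like clusters.

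Genes that act with the receptors did not move as a block. Of 73 genes in 5 lists (other Fc receptors, ITAM kinases and adaptors, uptake machinery, inhibitory signalling and the Fcgrt light chain), 59 could be tested, and 16 were higher and 16 lower in B-MF, where 22.6% and 16.9% of all genes tested were. Their median log2 difference was -0.01, beside 0.02 over all genes tested.

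Among 13 other Fc receptors, 2 were tested. Fcrls, a secreted Fc receptor-like scavenger protein of macrophages and microglia, was at 1.70 and 1.49 in B-MF, against 0.482 and 0.45 in Mo-MF (log2 difference 1.58, limma adjusted p = 9.87e-07). Trim21, the cytosolic antibody receptor, had a log2 difference of -0.12 and did not pass (limma adjusted p = 0.101).

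Of the 20 ITAM kinases and adaptors tested, 5 were higher and 7 lower in B-MF. The Src-family kinases Fgr and Src showed the largest decreases, from 0.214 and 0.202 to 0.00936 and 0.00507 for Fgr and from 0.206 and 0.210 to 0.0258 and 0.0240 for Src. Their log2 differences were -1.52 and -1.30 on a scale that understates low genes. In B-MF both genes lay under the mean of 0.1 required for testing, so they entered the test only through Mo-MF. Their place as the largest decreases is tied to that filter and is not read as a result. Syk, the kinase that docks on the phosphorylated ITAM, was lower as well (-0.34), as was Prkcd, a kinase downstream of the receptors (-0.50). Tyrobp, the DAP12 adaptor that resembles Fcer1g, was higher at 69.7 and 69.7 against 55.9 and 56.0 (0.32), and so were the adaptor Blnk (0.36) and the kinase Fyn (0.24). Each of these genes had an adjusted p under the threshold in limma.

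Of the 19 genes of uptake machinery, 6 were higher and 4 lower. Myo10, a myosin of extending pseudopods, had a log2 difference of 0.72. The PI3K regulatory subunit Pik3r1 (0.50) and the Arp2/3 subunit Arpc3 (0.46) were higher as well. Pik3r5 and Pik3cb, another regulatory and a catalytic subunit of PI3K, were lower (-0.72 and -0.35), as was the Arp2/3 component Actr3 (-0.27). Subunits of the same complexes thus went in both directions.

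Of 17 tested genes of inhibitory signalling, 4 were higher and 4 lower. Dok2, an adaptor that restrains kinase signalling, was at 1.36 and 1.23 in B-MF, against 0.563 and 0.525 in Mo-MF (1.12). The ITIM receptors Clec12a (0.31) and Lilrb4a (0.22) were higher too. Cd22, an inhibitory receptor best known from B cells, was at 0.114 and 0.105 in B-MF, against 0.692 and 0.657 in Mo-MF (-1.89), and Dok3 (-0.58) and the receptor of CD47, Sirpa (-0.40), were lower. Inpp5d, which encodes the SHIP1 phosphatase recruited by Fcgr2b, had a difference of 0.11 and did not pass (limma adjusted p = 0.114). Leaving out a Mo-MF library brought the called pathway genes from 32 to 19 or 20.

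**Figure D3:**
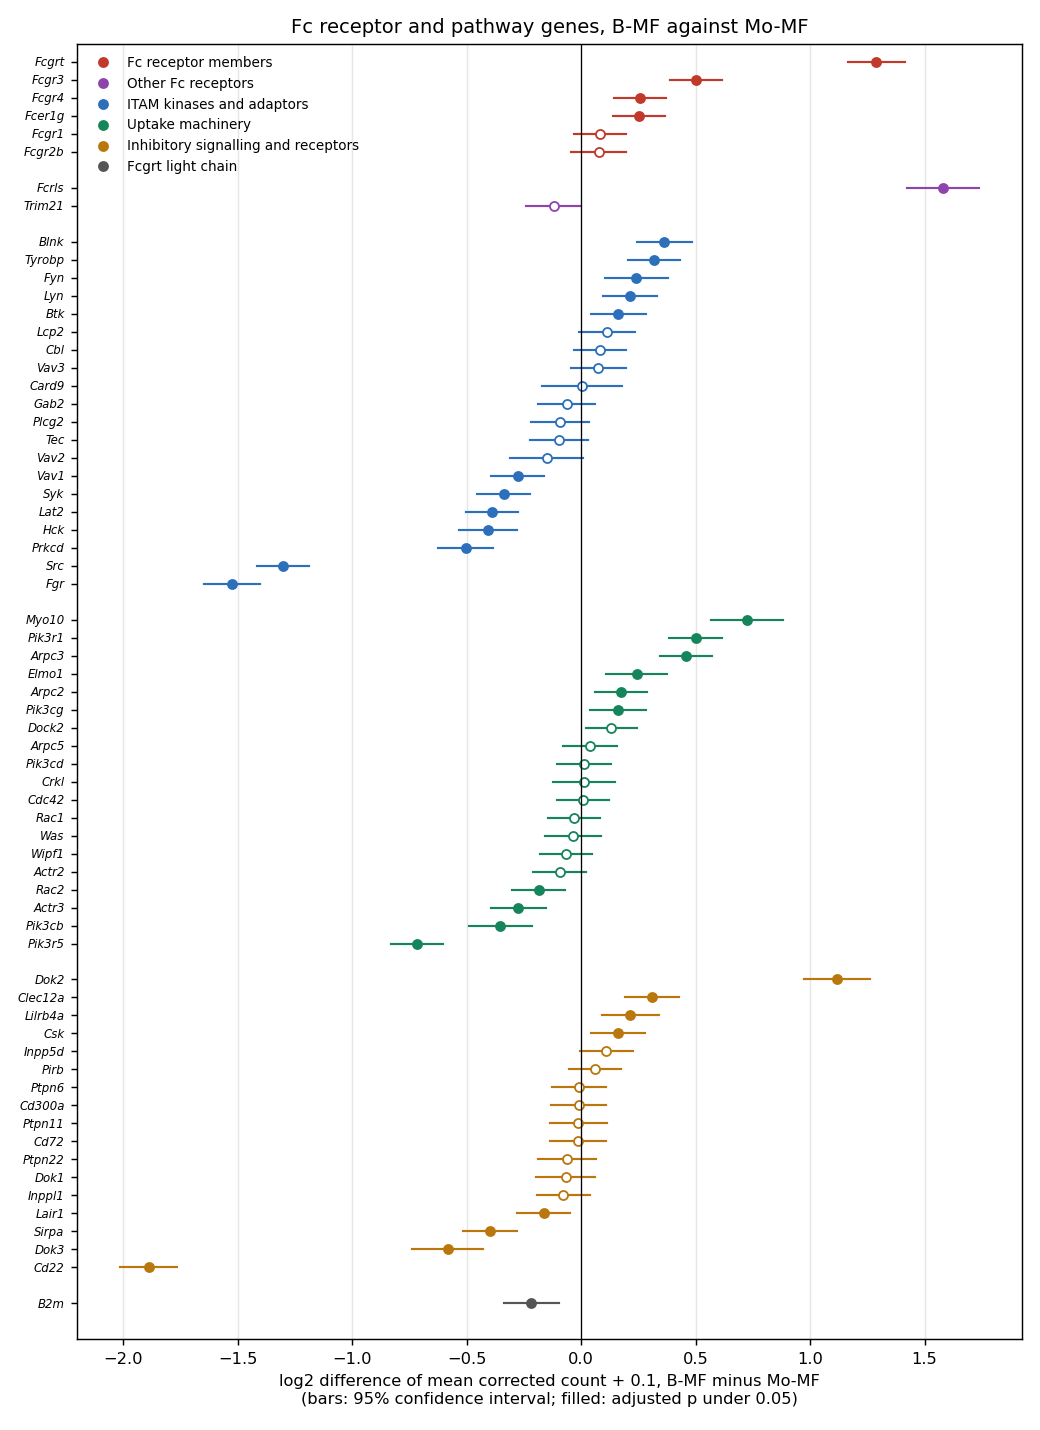
Log2 difference, B-MF minus Mo-MF, of the 6 Fc receptor genes and the 59 tested pathway genes, with 95% confidence intervals and filled points for an adjusted p under 0.05 in limma. Fcgrt leads the receptors at 1.29, and the ITAM, uptake and inhibitory lists each hold genes on both sides of 0.

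In TAM, the receptors divided by cell class. Over all cells, Fcgr1 was at 2.02, 0.799, 1.25 and 1.12 in libraries 2, 3, 4 and 5, and Fcgr2b at 2.13, 1.16, 1.5 and 1.26. Library 2 was highest for both and library 3 lowest. The monocyte/macrophage-like cells made up 46.4%, 27.6%, 35.7% and 31.1% of the same libraries, in the same order as Fcgr1, and over a whole library fewer such cells and less RNA per cell cannot be told apart. Fcgr3 (4.83 to 5.61), Fcgr4 (1.59 to 2.11) and Fcer1g (18.6 to 22.0) spread less between libraries.

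By class, Fcgr1 was at 3.30, 2.27, 2.64 and 2.89 in the monocyte/macrophage-like cells of libraries 2 to 5 and at 0.180, 0.134, 0.171 and 0.170 in their neutrophil-like cells. Fcgr2b was at 3.07, 2.95, 2.98 and 2.76 against 0.435, 0.330, 0.384 and 0.399. Fcgrt was at 0.428, 0.347, 0.413 and 0.460 against 0.0819, 0.0429, 0.0689 and 0.0557. In each of these 3 genes all libraries of the first class lay above all of the second. The share of all genes that separate the classes in this way was not computed. The lack of overlap is therefore not read as particular to these genes. Fcgr3 was nearly even, at 5.34 to 6.02 and 5.21 to 5.80, and so was Fcgr4, at 1.55 to 2.29 and 1.72 to 2.16. The sign of the small Fcgr3 difference changed with the clustering (log2 difference -0.01 at a resolution of 0.25 and -0.08 with 20 components). Fcer1g was at 18.7 to 21.5 in monocyte/macrophage-like and 19.8 to 23.8 in neutrophil-like cells, and within each library it was higher in the neutrophil-like cells.

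Background was read from cells that should lack a receptor, with T/NK-like cells for Fcgr1, Fcgr2b, Fcgr4 and Fcgrt. Free RNA and doublets, which were not removed, cannot be told apart in these shares. In library 5, Fcgr2b had a mean of 0.423 over 26 T/NK-like cells with a count in 3.85% of them, so few cells held many counts. Of 80 T/NK-like cells, 3.75% held a count of Fcgr1 (95% exact binomial interval 0.78% to 10.6%) at a median of 8338.5 corrected counts, and 8.81% of 5519 neutrophil-like cells did (8.07% to 9.58%) at a median of 7502. Of B-like cells, 4.13% did (2% to 7.47%), so the neutrophil-like share lay inside the interval of the T/NK-like cells and above that of the B-like cells, far below the 75.2% of monocyte/macrophage-like cells. A count of Fcgr2b was present in 20.2% of neutrophil-like cells (19.1% to 21.3%), in 5% of T/NK-like cells (1.38% to 12.3%) and in 25.6% of 242 B-like cells (20.2% to 31.6%). B cells carry Fcgr2b themselves. The share in the monocyte/macrophage-like cells was 78.9%. For Fcgr3, the share was 96.0% of neutrophil-like, 96.7% of monocyte/macrophage-like cells. It differed widely among the classes with little Fcgr3, at 48.3% of B-like, 25% of T/NK-like, 12.4% of dendritic-like and 8.45% of osteoclast-like cells, so no single share is given as its background, and NK cells carry the receptor. Fcgr4 was present in 65.1% of monocyte/macrophage-like and 63.1% of neutrophil-like cells, against 8.75% of T/NK-like cells. Fcgrt was present in 28.4% and 3.81%, against 1.25% of T/NK-like and 5.79% of B-like cells, so its neutrophil-like share was within background. Intervals cover counting error only.

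Thinned to 5000 corrected counts, Fcgr1 was detected in 57.4% to 68.1% of monocyte/macrophage-like and 5.79% to 8.03% of neutrophil-like cells of a library. For Fcgr4 the shares were 45.4% to 56.8% and 53.6% to 58.0%. The split of Fcgr1 and the overlap of Fcgr4 were thus also seen at an equal total of corrected counts. Raw depth is unknown, and the median number of detected genes was 1316 to 1452 in the neutrophil-like clusters and 2382.5 to 2698 in the monocyte/macrophage-like clusters.

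The activating to inhibitory ratio was 3.66, 3.25, 3.39 and 3.99 in the monocyte/macrophage-like cells of libraries 2 to 5, and 18.2, 22.6, 19.2 and 19.6 in their neutrophil-like cells. The classes did not overlap. The high ratio in neutrophil-like cells went with a Fcgr2b level of at most 0.435, where small amounts of free RNA or a few doublets weigh on the value. Their summed activating level was lower, at 7.37 to 7.92 against 9.57 to 11.2 in monocyte/macrophage-like cells. Fcgr3 was the main activating receptor in both classes. Over all cells of a library the ratio was 4.54, 6.66, 5.40 and 6.67, between the values of its 2 main classes.

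The monocyte/macrophage-like clusters differed in their receptors. Cluster 1, led by Inhba, Thbs1 and Arg1, had the most Fcgr1 (3.22 to 4.39), Fcgr3 (6.56 to 7.39) and Fcgr2b (3.66 to 3.98) and the least Fcgrt (0.152 to 0.191). Cluster 4, led by Ccr2, had Fcgr1 at 0.921 to 1.36, Fcgr2b at 1.61 to 1.91 and Fcgrt at 0.573 to 0.782. Cluster 6, led by C1q genes, had the most Fcgrt of the 3 (0.769 to 1.15) and Fcgr4 at 2.38 to 4.25, with Fcgr1 at 1.77 to 2.33. The ranges of Fcgr2b in clusters 4 and 6 overlapped, as did those of Fcgr3 (3.82 to 4.39 and 3.45 to 4.01), while Fcgr1 and Fcgr2b of cluster 1 lay above both. The ranges of Fcgrt in clusters 4 and 6 overlapped slightly, and every library had more Fcgrt in cluster 6. Cluster 5, which carried all 8 macrophage markers but was led by collagen genes and stayed unnamed, had Fcgr1 at 2.10 to 3.05, Fcgr2b at 2.45 to 3.95 and Fcgr4 at 1.82 to 3.28.

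Osteoclast-like cells, a small cluster of 71 cells led by Ctsk and Acp5, held Fcer1g with little Fcgr1 and Fcgr3. A count of Fcer1g was present in 71 of 71 cells at a mean of 7.89, against 2.74 in T/NK-like cells. Fcgr1 was present in 1.41% (0.0357% to 7.6%), an interval that overlapped that of T/NK-like cells, and Fcgr3 in 8.45% of them. Fcgr2b was present in 15.5%. Fcgrt was present in 54.9% (95% exact binomial interval 42.7% to 66.8%), against 1.25% of T/NK-like (0.0316% to 6.77%) and 5.79% of B-like cells (3.2% to 9.52%). Its mean of 1.46 was the highest of the named classes. By library, Fcgrt was present in 60.7%, 57.1% and 28.6% of osteoclast-like cells in libraries 2, 4 and 5. Library 3 held 8 such cells. These intervals pool cells over libraries and cover counting error only, not the spread between libraries. Dendritic-like cells had Fcgr1 in 0.952% and Fcgr2b in 3.81% of 105 cells, at or below the T/NK-like shares.

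The likeness of the members over 9 TAM clusters, those that every library filled with 10 cells or more, was described by Pearson correlation of log2 levels among 5905 genes. Of all genes, the pattern closest to Fcgr1 was that of Fcgr2b (r = 0.991), followed by Tmem37 and the scavenger receptor Msr1 (r = 0.987 and 0.984), and Fcgr2b in turn was closest to Fcgr1, Msr1 and Ripk3. Fcgr3 was closest to Cd53, Lgals9 and Fcer1g (r = 0.991, 0.985 and 0.974), and Fcer1g to Fcgr3, Cd53 and Ctsd. Fcgr4 was closest to Pkm, Klra2 and Mical1 (r = 0.944, 0.944 and 0.939), and Fcgrt to Abce1, Rpf2 and Fbl (r = 0.989, 0.986 and 0.986). The clusters share libraries and depth, so these values have no p. The activating Fcgr1 thus ran with the inhibitory receptor (r = 0.991) more closely than with Fcgr3 (r = 0.532) or Fcgr4 (r = 0.630).

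**Figure D4:**
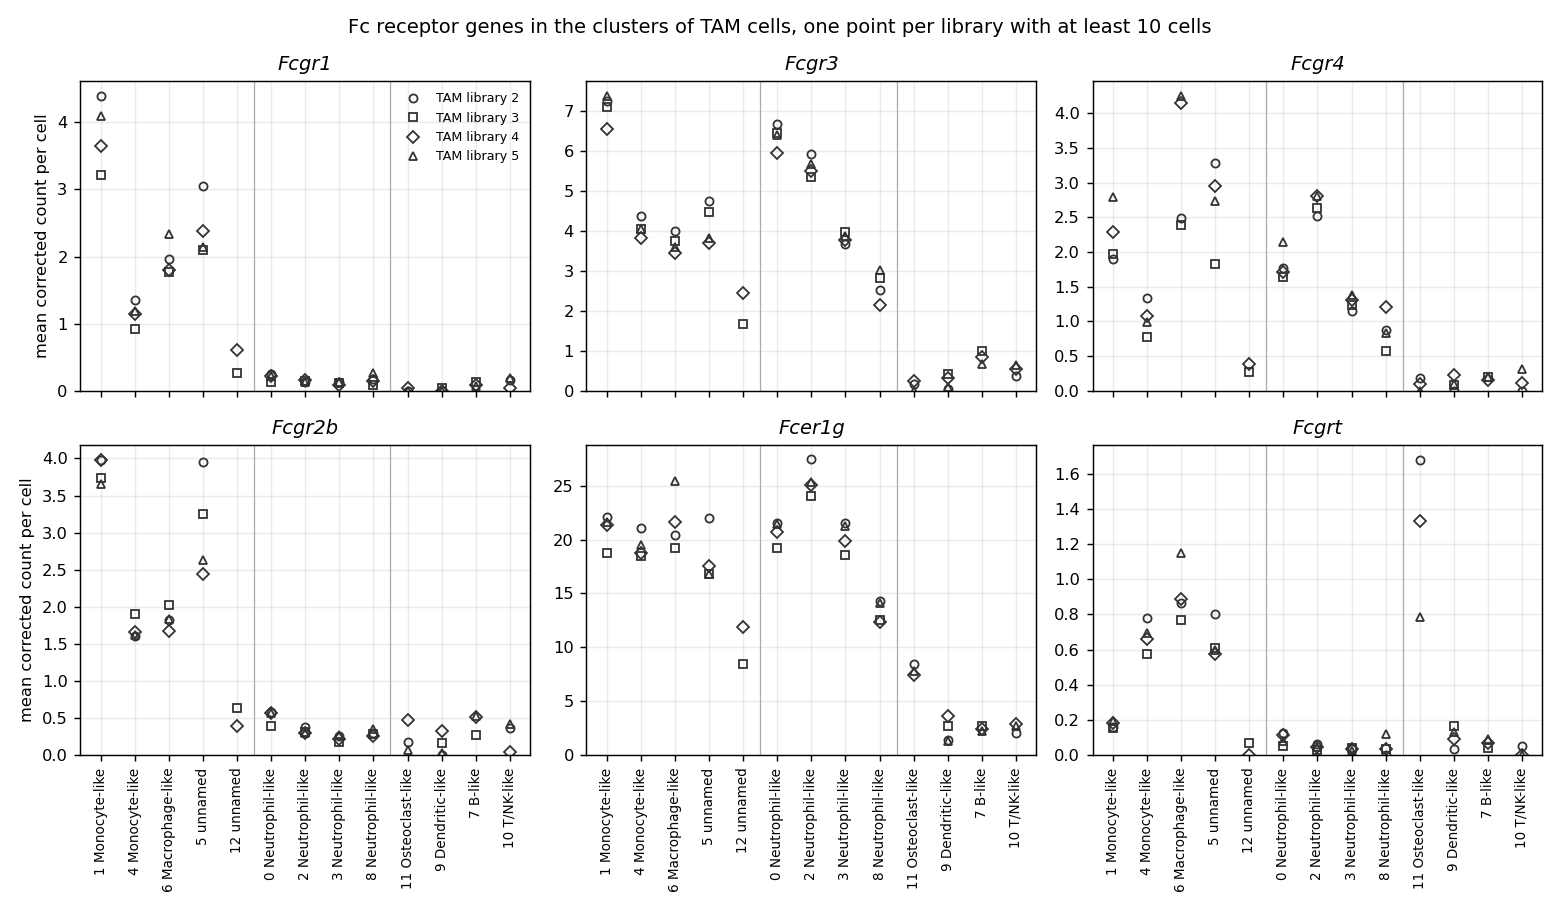
Mean corrected count per cell of each Fc receptor gene in the clusters of TAM cells, with 1 symbol per library holding at least 10 cells and vertical lines between monocyte/macrophage-like and unnamed, neutrophil-like and other clusters. Fcgr1 and Fcgr2b stay below 0.6 in the 4 neutrophil-like clusters, while the ranges of Fcgr3, Fcgr4 and Fcer1g overlap those of the monocyte/macrophage-like clusters except for Fcgr3 and Fcer1g in cluster 8.

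The ATAC-seq libraries ask which of these genes were already open in B-cell precursors. A promoter was counted as open where a peak of the authors lay within 1 kb of the gene start. All 6 genes had such a peak in at least 1 of 12 libraries, as did 52.4% of 27025 genes. The inhibitory Fcgr2b had a peak in 12 of 12 libraries, which 38.9% of genes had. Its fold enrichment was 19.2 to 23.2 in BM and 19.9 to 24.9 in spleen, at percentile 86.7 to 96.1 of the peaks of its library.

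Fcer1g and Fcgr3 had a peak in 6 of 6 BM libraries and in 0 of 6 spleen libraries. This pattern was seen in 3.11% of all genes, and no member had the reverse pattern, seen in 0.185%. The Fcer1g peak had a fold enrichment of 12.1, 10.9 and 11.2 in CSF1R+ and 12.7, 11.7 and 14.0 in CSF1R- cells of BM. The Fcgr3 peak had 5.24, 8.55 and 6.99 in CSF1R+ and 8.26, 7.79 and 7.31 in CSF1R- cells. Their summits lay from 39 bases before to 36 bases after the gene start. Fcgrt had a weak peak of 3.71 to 5.18 in 3 of 3 BM CSF1R+ libraries, in 1 of 3 BM CSF1R- libraries and in 0 of 6 spleen libraries. Fcgr1 had a peak in 4 of 6 BM and 4 of 6 spleen libraries (4.12 to 7.77), and Fcgr4 in 5 of 6 BM and 3 of 6 spleen libraries (4.5 to 11.9). Relative to the start, the Fcgr4 summit lay at -997 to -921 bases in 4 of the 5 BM libraries with a peak and at -18 to 14 bases in the 3 spleen libraries.

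BM libraries had 65832 to 76530 peaks and spleen libraries 43407 to 50392, so a weak peak had less room in the spleen lists. When each list was shortened to its 43407 peaks with the best q-value, a choice made after seeing the data, 5 members had a peak in any library (47.1% of genes), all but Fcgrt, and Fcgr2b had it in all 12 (37% of genes). Fcer1g then showed the pattern of BM without spleen, as did 1.51% of genes, and Fcgr3 did not. The reverse pattern held for 0 members and 0.574% of genes. With a window of 5 kb, Fcgr3 kept it and Fcer1g did not. The depth of the single libraries is unknown from the peak lists.

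Between CSF1R+ and CSF1R- cells, no member had a peak in all 3 libraries of a group and in none of the other, in BM or spleen. Such promoters were rare among all genes, at 0.115% and 0.0518% for CSF1R+ and CSF1R- in BM and at 0.0666% and 0.0074% in spleen. With lists of equal length, again 0 members met the rule, beside 0.107% and 0.0518% of genes in BM and 0.0259% and 0.0296% in spleen. Without replicate 3, where the rule compares 2 libraries with 2, Fcgrt met it for BM CSF1R+ cells, as did 0.485% of genes, and Fcgr1 for BM CSF1R- cells, as did 0.152%. With 3 against 3 libraries the smallest exact two-sided p is 0.1, and no test was run.

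**Figure D5:**
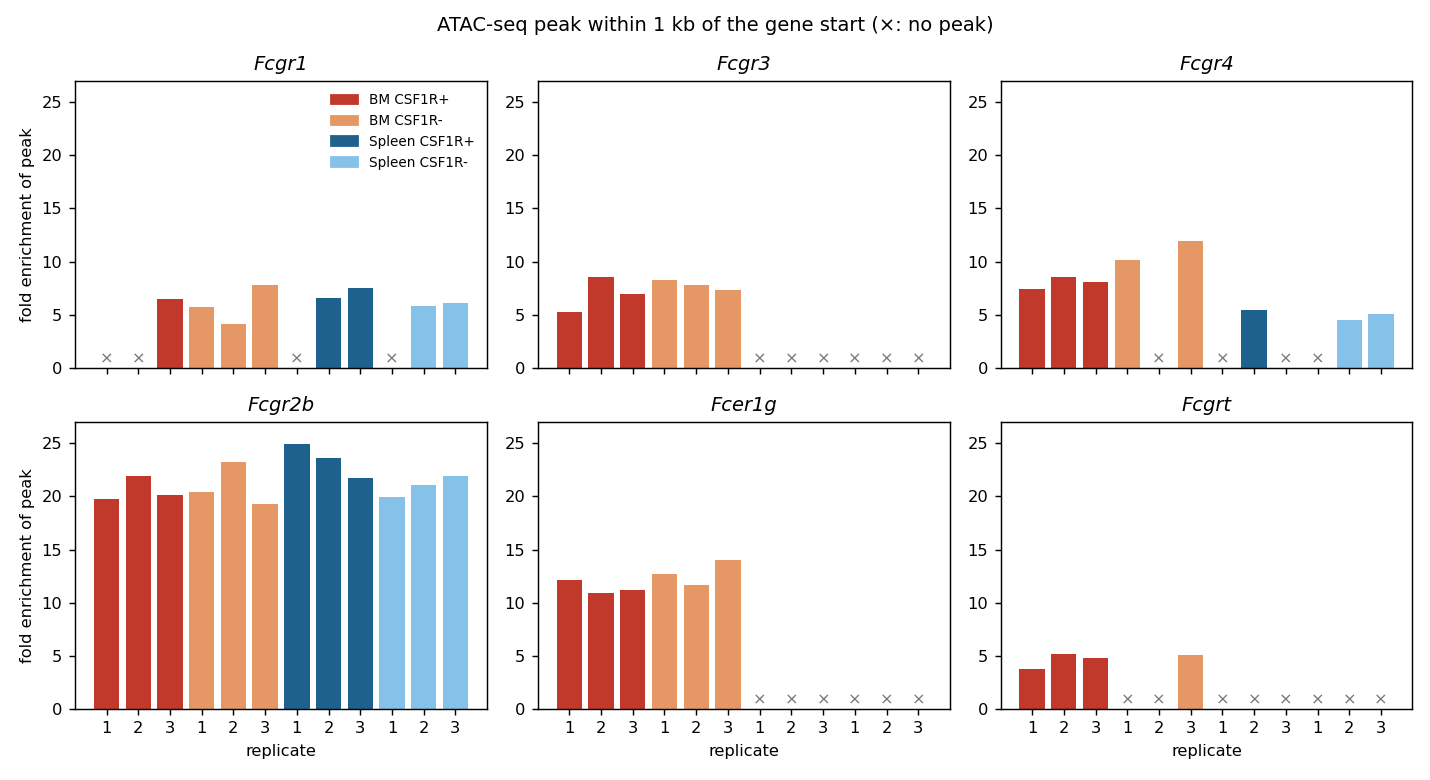
Fold enrichment of the strongest ATAC-seq peak within 1 kb of each gene start, with 1 bar per library, replicates 1 to 3 in each of 4 groups, and a cross where no peak was called. Fcgr2b is above 19 in all 12 libraries, while Fcgr3 and Fcer1g have bars in the 6 BM libraries alone.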

How the data were processed

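scRNA-seq libraries of B-MF, Mo-MF and TAM were counted by the authors with Cell Ranger and corrected with SCTransform, and the deposited values are the natural log of 1 plus the corrected count. All 77097456 and 21074130 values above 0 gave whole numbers within 1e-06. These are not raw counts, so no count model was fitted. For ATAC-seq, the authors trimmed with cutadapt, aligned with BWA to mm10 and called peaks with MACS2 in each library, per the labels and the study's methods. In the deposited lists a peak has a fold enrichment over background, and a p-value and q-value given as −log10. A merged peak list was not used.

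Log2 of the library mean plus 0.1 was compared with limma 3.58.1 in R 4.3.3 for genes whose mean reached 0.1, and the ratio by exact permutation. In data simulated for this comparison on 8633 genes, limma was checked for planted differences. Cells were clustered by Leiden (resolution 0.5, 30 components, 20 neighbors, 2000 variable genes without the members and pathway genes), and clusters were named from fixed markers. Doublets were not removed. Column names of TAM libraries differ from the labelled replicate numbers, so TAM values are given per library. Some TAM cells held as few as 848 detected genes, under the minimum the study states. The named genes are the 6 members, up to 3 called genes per list and direction with the largest non-overlapping difference, and the 3 genes most like each member over TAM clusters. Members and lists were chosen with earlier results of these data known. Gene starts and sequences are from RefSeq GRCm38.p6, which matches mm10, and all 6 members were found in the promoter table. Alternatives were other pseudocounts, filters, scalings and clusterings, leaving out cell types or libraries, and other windows and thresholds for peaks.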

Additional observations from a re-analysis of the deposited data

How the results depend on the processing

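No difference that passed the test in B-MF against Mo-MF reversed under the alternatives tried. The number of members called in B-MF against Mo-MF was 4 in most settings, 6 with a pseudocount of 1, with averaged log values or with a variance trend, and 3 to 5 when a library was left out. Pathway genes called numbered 27 to 38 against 32, and 19 to 40 when a library was left out, with the fewest without a Mo-MF library, where a single library is assumed to vary like the other group. The main setting called 39.5% of all genes in either direction. The share of all genes called in each other setting is not given here, so these counts are not read as particular to the receptors. The log2 difference of the activating to inhibitory ratio ran from 0.01 (Fcgr1 alone) to 0.43 (Fcgr3 alone). Replicates of B-MF and Mo-MF share only a number: the correlation of their deviations was 0.126 over 8633 genes with 2 pairs. With the replicate block, 4 members and 33 pathway genes were called. In TAM, the log2 ratio of neutrophil-like exceeded that of monocyte/macrophage-like cells by 2.48, by 2.37 to 2.54 when a library was left out, and by 0.81 with averaged log values, which is another quantity by construction. Members whose classes did not overlap numbered 3 in all settings but 4 without library 3, with no share of all genes computed beside it. The count of members open in all BM and no spleen libraries fell from 2 to 1 with a 5 kb window and to 1 with lists of equal length. Members that differed between CSF1R+ and CSF1R- were 0, and 2 without replicate 3 (Fcgrt and Fcgr1). The settings that left out clusters by mitochondrial share or cell cycle, added cluster 5 to the monocyte/macrophage-like cells or used lists of equal length were chosen after seeing the data.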
